A study of Drosophila melanogaster with 12 samples.

Results

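The Imd signalling core comprised the 8 genes that carry the signal of the immune deficiency (Imd) pathway inside the cell: imd, Fadd, Dredd, Diap2, Tak1, Tab2, key and Rel. They were chosen by name, as the rows with these symbols in the table of normalised counts of female flies, and all 8 were found among its 17714 gene rows. In this pathway of the fruit fly Drosophila melanogaster, bacterial peptidoglycan is bound by recognition proteins of the PGRP family, and a complex of the adaptors Imd and Fadd with the caspase Dredd forms below the receptor. The ubiquitin ligase Diap2 then builds ubiquitin chains on this complex, which the kinase Tak1 and its partner Tab2 bind through Tab2, and Tak1 activates an IκB kinase made of the regulatory subunit Kenny, encoded by key, and a catalytic subunit, IKKbeta. The end point is Relish, encoded by Rel, a member of the NF-κB family that is cleaved, enters the nucleus and switches on antimicrobial peptide genes, chiefly in the fat body and the gut.

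Poly(A) RNA of whole female flies was sequenced in a design of 2 genotypes and 2 ages, with 3 libraries in each of the 4 groups and about 15 flies pooled per library. The wild type strain is labelled wOB and is called wOB below, and the Ptth mutants are labelled ptth120BC2. Each genotype was taken young, at 1 week in the submitters' design text, and old, at 5 weeks. Ptth encodes the prothoracicotropic hormone, a brain peptide that drives ecdysteroid synthesis in the larva. The study set out to learn which molecular changes go with the effect of Ptth on lifespan. The mutation is a property of the whole animal from early development on, so that no tissue or stage is singled out. The labels name 1 mutant genotype without describing its lesion, and name no infection.

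Values are the reads of a gene after division by the size factor of its library, called normalised counts here, and are given as mean ± SD (n = 3). Depth ranged from 16448805 to 28206866 reads per library. Between 267 and 4115 reads fell on each member in each library, so that counting error alone amounted to at most 6.12% of a value. Ptth itself had between 25.5 and 39.9 normalised counts in young wOB, 18.5 and 28.3 in young mutants, 75.3 and 76.8 in old wOB and 43.6 and 58.6 in old mutants, and the genotypes did not pass the test (adjusted p = 0.133 at the young age and 0.232 at the old age, limma). Since the labels do not describe the lesion, this transcript level was no firm check of the genotypes. Male transcripts, from genes of the male reproductive tract, were found in 3 libraries labelled female, wOB young replicates 1 and 2 and Ptth mutant young replicate 1. Their sum over 25 genes was 5177, 15658 and 7247 normalised counts in these libraries and at most 64.6 in the other 9. The main estimates that use a young group are therefore also given from the 9 libraries without male transcripts, where young wOB is a single library, taken to vary as much as the other groups do. In RNA of whole bodies, fewer cells of a type and less RNA per cell cannot be told apart.

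Tests were made with limma on log2(normalised count + 1) over 11403 genes, with all 4 groups in 1 model. Differences are log2 values ± SE, and the Benjamini-Hochberg adjustment of p covered all genes tested. A gene passed the test at an adjusted p under 0.05. It was called where the fold change was also over 1.5 between genotypes or over 2 between ages.

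All 8 members were transcribed in every library, and their levels covered a narrow range. Per kb of exon, the mean over the 12 libraries was 1174 normalised counts for key, 1101 for Diap2, 889 for Rel, 765 for Tab2, 594 for Tak1, 341 for Fadd, 275 for Dredd and 256 for imd. In this order the libraries of neighbours overlapped except between Tab2 and Tak1 and between Tak1 and Fadd. The receptor-proximal adaptors and caspase thus stood at the bottom. The order at the top differed between the genotypes: key was above Diap2 in all 6 wOB libraries and below it in all 6 mutant libraries, and Rel was above Tab2 in 5 wOB libraries and 1 mutant library. In young mutants Rel averaged 683 per kb and Tab2 780.5. Every library placed Tab2 above Tak1 and Tak1 above Fadd. Rel spanned the widest range, its highest library being 2.16 times its lowest, against 1.16 times for Diap2, the narrowest.

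**Figure D1:**
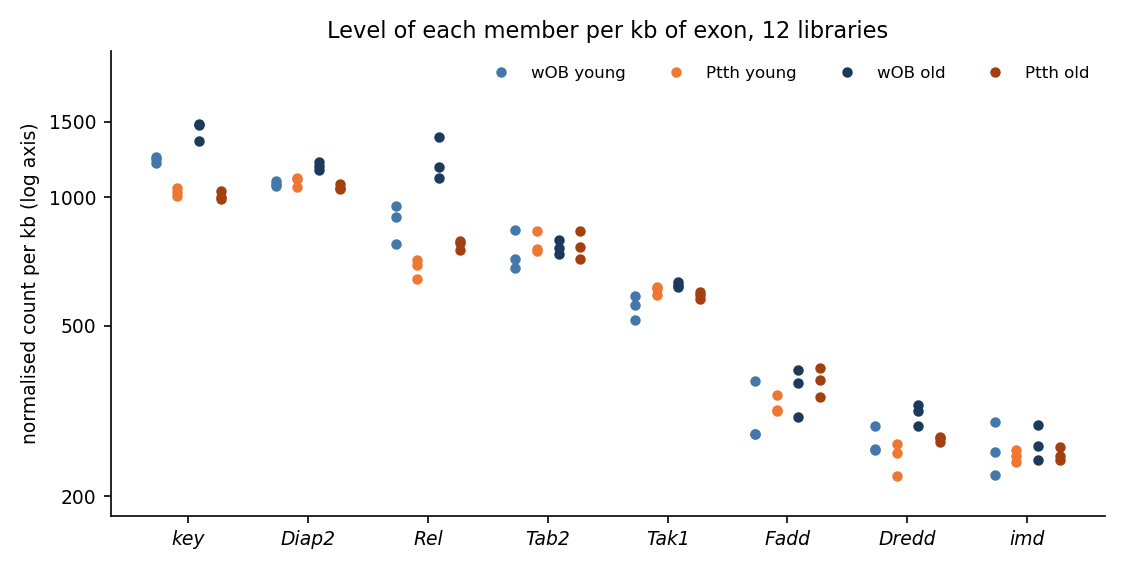
Normalised count per kb of exon (log axis) of the 8 members, ordered by their mean over 12 libraries. Each point is a library and each colour a group (wOB, wild type; Ptth, Ptth mutants). key (mean 1174) and Diap2 (1101) lie highest and imd (256) lowest, and Rel spreads most.

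Of the 8 members, key and Rel were lower in Ptth mutants than in wOB at both ages, and both were higher in old than in young wOB flies. Rel fell by 0.65 on the log2 scale in old mutants and key by 0.51. The old differences passed in all 26 alternative analyses (other settings, tools or libraries), and the young ones in 19 for key and 13 for Rel. The rise with age in wOB passed in 19 for key and 25 for Rel. The other 6 members did not pass the main limma test between genotypes at either age or between ages in wOB. With the other tools Diap2 passed at the old age in edgeR and DESeq2, and in DESeq2 Tak1 passed at the young age and both passed with age in wOB. The values of these 6 follow in the order in which they act.

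**Figure D2:**
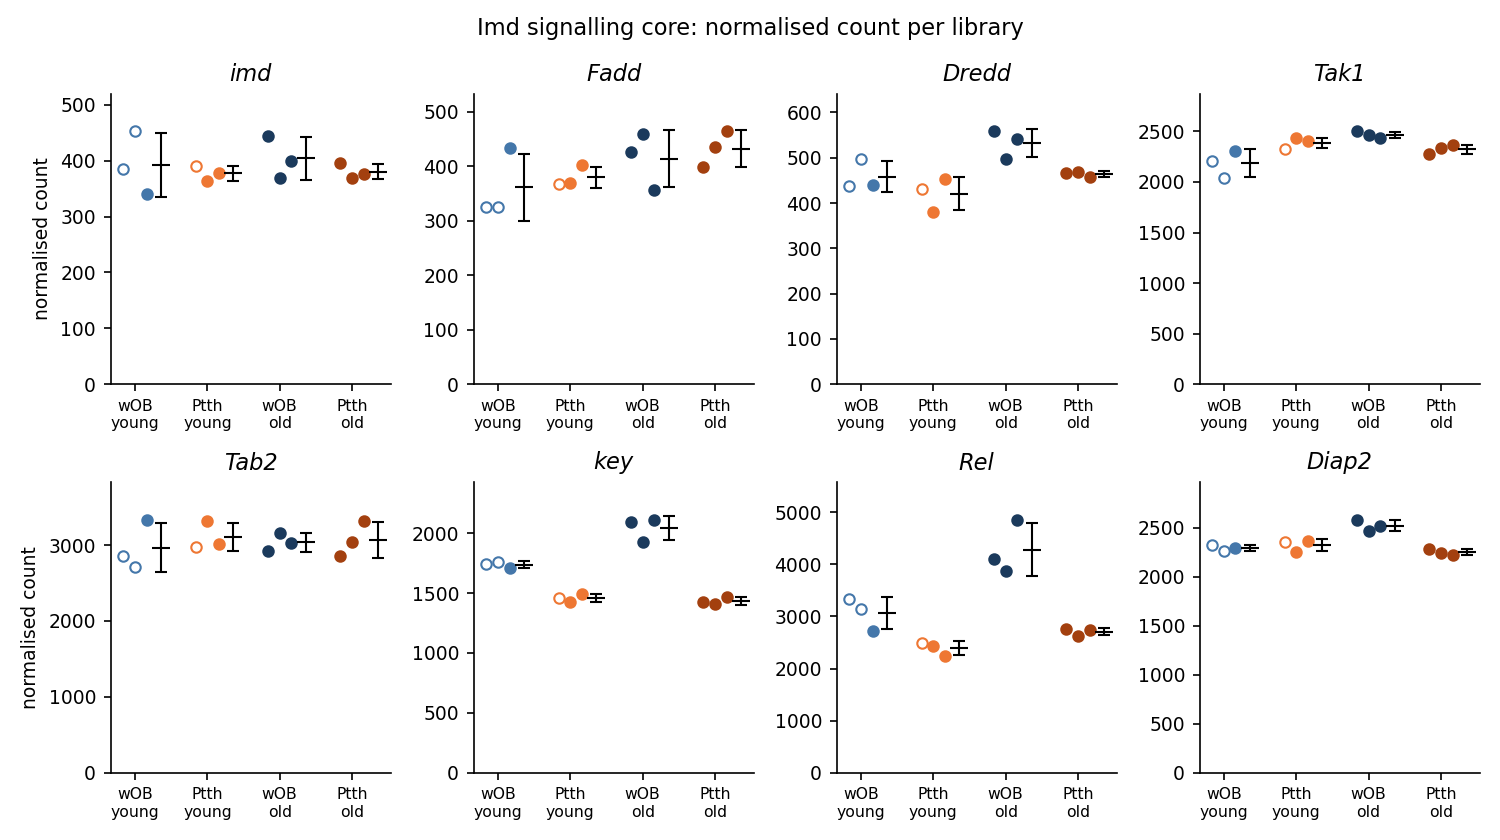
Normalised count per library of the 8 members, with the axis of each panel from 0. Points are libraries of young and old wild type (wOB) and Ptth mutant (Ptth) flies, open points are the 3 libraries with male transcripts, and black bars are mean ± SD (n = 3). For key and Rel all mutant libraries lie below all wOB libraries of the same age.

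imd encodes the adaptor with a death domain that gives the pathway its name. It lies on chromosome 2R, 18409796 to 18413599 on the minus strand of the Release 6 assembly. On the opposite strand 40 of its exon bases overlap GstE9, and its span overlaps that of Dp1 without a shared exon base. The normalised counts of imd were 384, 452 and 339.9 in young wOB, 389.9, 364 and 377 in young mutants, 445, 369 and 399 in old wOB and 395, 369 and 376 in old mutants. The groups overlapped at both ages and in both genotypes. The difference between genotypes was -0.05 ± 0.11 at the young age (adjusted p = 0.751, limma) and -0.08 ± 0.11 at the old age (adjusted p = 0.822), with 95% confidence intervals from -0.28 to 0.18 and from -0.32 to 0.15. In the 9 libraries without male transcripts the young difference changed sign, to 0.12 ± 0.12 (adjusted p = 0.800), and the difference between ages in wOB, 0.05 in all 12 libraries, was 0.24 ± 0.11 (adjusted p = 0.340). The intervals from all 12 libraries do not cover changes of imd beyond their bounds, and changes within them could have been missed with 3 libraries a group.

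Fadd, which joins Imd to Dredd, lies on chromosome 3R, 22034455 to 22035617 on the plus strand, within the span of pit on the same strand, with which it shares no exon base. It had 326, 325 and 432 normalised counts in young wOB, 367, 369 and 401 in young mutants, 427, 458 and 356 in old wOB and 397, 435 and 463 in old mutants. Again all groups overlapped. In young wOB the library without male transcripts, replicate 3, stood above the other 2, and the SD of this group was 61.6, the largest of the 4. The difference between ages was 0.20 ± 0.13 in wOB (adjusted p = 0.319, limma) and 0.19 ± 0.13 in mutants (adjusted p = 0.613), and between the young groups it was 0.08 ± 0.13. From the 9 libraries without male transcripts the sign turned in wOB, to -0.07 ± 0.16 (adjusted p = 0.852), and between the young groups, to -0.17 ± 0.16 (adjusted p = 0.807). Without wOB young replicate 3 Fadd passed the test with age in wOB.

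Dredd encodes the initiator caspase that cleaves Imd and Relish. The gene lies on chromosome X, 633622 to 635545 on the minus strand. Of its exon bases 12 overlap Mybbp1A on the opposite strand and 61 overlap mir-9372 on the same strand, which had 0 counts in every group. The counts of Dredd were 437, 498 and 440.1 in young wOB and 429.9, 379.9 and 452 in young mutants, which overlapped. In old flies they were 558, 498 and 542 in wOB and 466, 469 and 458 in mutants, so that all 3 old wOB libraries lay above all old mutant libraries. The difference at the old age was -0.20 ± 0.09 and did not pass the test (adjusted p = 0.278, limma), nor did the difference between ages in wOB (0.22 ± 0.09, adjusted p = 0.149) or in mutants (0.15 ± 0.09, adjusted p = 0.511). In both genotypes all old libraries were above all young ones. In wOB this was a near tie: the lowest old library had 498.1 and the highest young one, which holds male transcripts, 497.7. In that old library 1 read was worth 0.954. The difference between ages in wOB was 0.27 ± 0.11 from the 9 libraries without male transcripts and again did not pass (adjusted p = 0.290).

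Diap2, the ubiquitin ligase of the inhibitor of apoptosis family that acts on the Imd complex, lies on chromosome 2R, 15932170 to 15934825 on the minus strand. Its counts were the most even of the core, with 2326, 2268 and 2292 in young wOB, 2356, 2256 and 2365 in young mutants, 2582, 2472 and 2521 in old wOB and 2290.2, 2248 and 2226 in old mutants. Old wOB stood above each of the other groups without overlap, and the other 3 groups overlapped with one another. The difference between genotypes at the old age was -0.16 ± 0.05 (adjusted p = 0.0860, limma) and the difference between ages in wOB 0.14 ± 0.05 (adjusted p = 0.118). From the 9 libraries without male transcripts the difference between ages in wOB was also 0.14 ± 0.05. At the old age Diap2 passed in edgeR (-0.17, adjusted p = 0.0422), in DESeq2 (-0.16, adjusted p = 3.98e-04) and in limma without the 3 libraries with male transcripts (-0.16, adjusted p = 0.0393), and with age in wOB it passed in DESeq2 (0.13, adjusted p = 0.00708). The old libraries were the same in both limma models, and the SE was smaller without the libraries with male transcripts.

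Tak1 and Tab2 encode the kinase that branches to the IκB kinase and to JNK, and its ubiquitin-binding partner. Tak1 lies on chromosome X, 20515908 to 20524928 on the minus strand, and had 2210.0, 2037 and 2311 counts in young wOB, 2327, 2430.0 and 2401 in young mutants, 2499.8, 2463 and 2436 in old wOB and 2273, 2334 and 2362 in old mutants. At the young age all mutant libraries were above all wOB libraries, and at the old age all were below. Neither difference passed the test (0.13 ± 0.06, adjusted p = 0.148, and -0.09 ± 0.06, adjusted p = 0.543, limma), and neither did their difference (-0.21 ± 0.08, adjusted p = 0.637). With age in wOB Tak1 differed by 0.18 ± 0.06 and did not pass (adjusted p = 0.0880, limma). From the 9 libraries without male transcripts this difference with age was 0.09 ± 0.04. In DESeq2 Tak1 passed at the young age (0.12, adjusted p = 0.0481) and with age in wOB (0.17, adjusted p = 0.00455). The young difference was 0.06 ± 0.04 without the libraries with male transcripts (adjusted p = 0.690).

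Tab2 lies on chromosome 2R, 19292529 to 19304508 on the plus strand. Its counts ranged from 2710.2 to 3330.4 in young wOB, from 2976 to 3319 in young mutants, from 2922 to 3161 in old wOB and from 2850.4 to 3323 in old mutants. The groups overlapped in every comparison, and the difference between genotypes at the old age was 0.01 ± 0.09 (adjusted p = 0.987, limma; 95% confidence interval from -0.17 to 0.20). From the 9 libraries without male transcripts it differed by -0.07 ± 0.10 between the young groups (adjusted p = 0.871) and by -0.13 ± 0.10 between ages in wOB (adjusted p = 0.554), where all 12 libraries gave 0.07 and 0.04.

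key encodes Kenny, the regulatory subunit of the IκB kinase and the fly counterpart of NEMO. It lies on chromosome 2R, 24785514 to 24787411 on the minus strand, and 29 of its exon bases overlap CG3589 on the opposite strand. In young flies it had 1741, 1763 and 1706 normalised counts in wOB and 1459.8, 1429 and 1489.8 in mutants. In old flies it had 2092, 1924 and 2111 in wOB and 1423, 1409.9 and 1469 in mutants. All 6 mutant libraries lay below all 6 wOB libraries, and within wOB all old libraries lay above all young ones, while young and old mutants overlapped.

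The level of key fell from 1737 ± 28.4 to 1459.6 ± 30.3 between young wOB and young mutants (-0.25 ± 0.06, adjusted p = 0.0201, limma) and from 2042 ± 103 to 1434 ± 30.9 between the old groups (-0.51 ± 0.06, adjusted p = 2.31e-04). The latter difference was a 1.42-fold change, under the 1.5-fold threshold, so that key passed the test and was not called. With age it rose by 0.23 ± 0.06 in wOB (adjusted p = 0.0239), and in mutants the difference was -0.03 ± 0.06 (adjusted p = 0.891, 95% confidence interval from -0.15 to 0.10). CG3589, its neighbour, had a difference of 0.08 ± 0.09 between the old groups (adjusted p = 0.787).

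The difference of key at the old age passed the test in all 26 alternative analyses, with log2 values from -0.55 to -0.48. In young flies it did so in 19 of 26. It was -0.23 without the 3 libraries with male transcripts (adjusted p = 0.298), and it lost the test when wOB young replicate 1 (adjusted p = 0.0867) or 2 (0.0609) or Ptth mutant young replicate 2 (0.0777) or 3 (0.0525) was left out. The rise with age in wOB was 0.26 without the libraries with male transcripts (adjusted p = 0.0987) and did not pass without wOB young replicate 1 (0.0862) or wOB old replicate 1 (0.0989) or 3 (0.0874).

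Rel, at the end of the cascade, lies on chromosome 3R, 9044183 to 9047977 on the minus strand, within the span of Nmdmc on the same strand, with which it shares no exon base. In young flies it had 3334, 3137 and 2722 normalised counts in wOB and 2499, 2426 and 2249 in mutants. In old flies it had 4109, 3874 and 4850.0 in wOB and 2758, 2628 and 2736 in mutants. Wild type libraries were above mutant libraries of the same age without overlap, old libraries were above young ones in both genotypes, and old wOB was both the highest group and the one with the widest spread.

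The level of Rel fell from 4278 ± 509 in old wOB to 2707 ± 70.0 in old mutants (-0.65 ± 0.09, adjusted p = 0.00134, limma), a 1.57-fold change, and it was the 1 member called. In young flies it fell from 3064 ± 312 to 2391 ± 128 (-0.35 ± 0.09, adjusted p = 0.0385), under the fold threshold. It rose with age by 0.48 ± 0.09 in wOB (adjusted p = 0.00749), and the difference of 0.18 ± 0.09 in mutants did not pass the test (adjusted p = 0.408). Nmdmc, in whose span it lies, had a difference of 0.03 ± 0.17 between the old groups (adjusted p = 0.986).

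The difference of Rel at the old age passed the test in all 26 alternatives, from -0.72 to -0.56. Without wOB old replicate 3, the library with the highest count, it was -0.56 (adjusted p = 0.00614), a change under 1.5-fold that was no longer called. At the young age it passed in 13 of 26 alternatives and was -0.22 without the libraries with male transcripts (adjusted p = 0.621). The young difference also lost the test when wOB young replicate 1 (adjusted p = 0.161) or 2 (0.118), Ptth mutant young replicate 2 (0.0990) or 3 (0.156), wOB old replicate 1 (0.0566) or any of Ptth mutant old replicates 1 to 3 (0.0588, 0.0610 and 0.0576) was left out. The rise with age in wOB was 0.65 without the libraries with male transcripts (adjusted p = 0.0439) and passed in 25 of 26 alternatives.

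**Figure D3:**
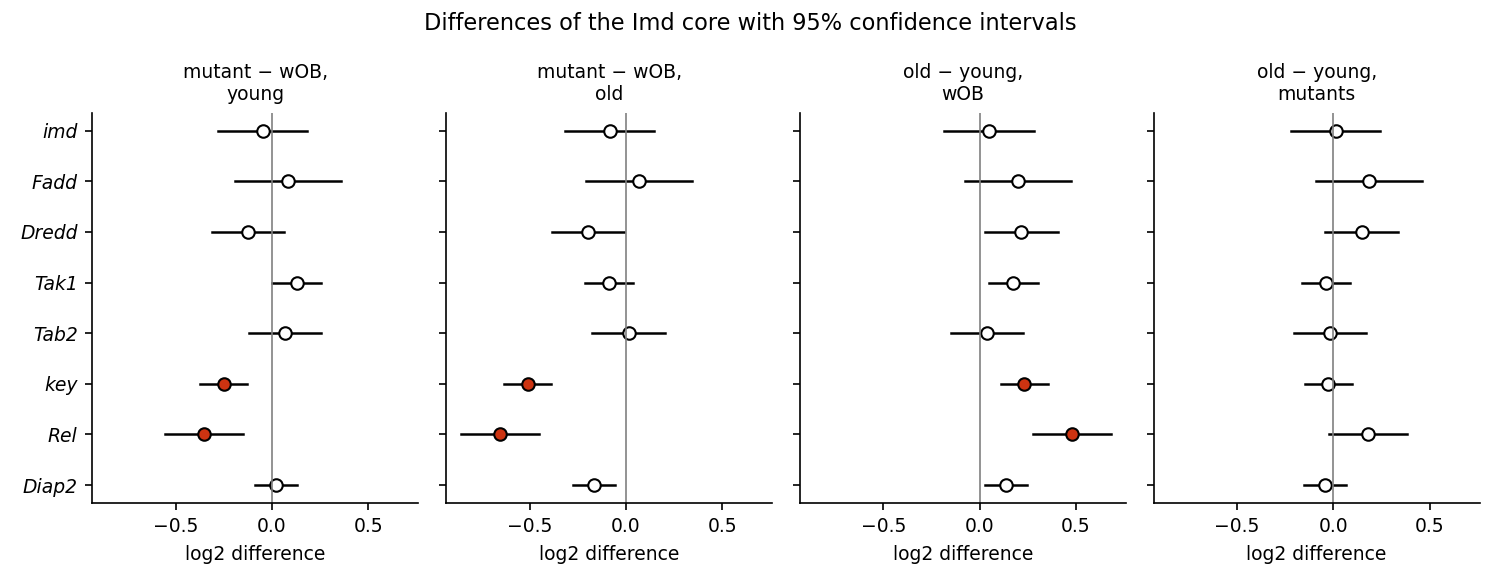
Log2 differences of the 8 members between genotypes at each age and between ages in each genotype, with 95% confidence intervals from limma. Red points passed the test at an adjusted p under 0.05 (key and Rel in the first 3 panels) and open points did not. Rel at the old age has the largest difference (-0.65).

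Taking the core as a list, young mutants were compared with young wOB first. None of the 8 members was called, where 4.81% of all genes tested were, and 2 passed the test with lower values (key and Rel), where 5.53% of all genes passed it in that direction. All libraries of young mutants lay below all young wOB libraries in 2 members, key and Rel, beside 13.7% of all genes, and above them in 1, Tak1, beside 11.6%. Without the libraries with male transcripts limma passed 0 members, with 1 at an unadjusted p under 0.05 (key), and edgeR passed 0. The median difference of the core was -0.01, beside -0.02 for all genes.

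At the old age 1 of 8 members was called as lower, beside 2.71% of all genes tested, and 2 passed the test as lower, beside 3.67%. In 5 members (Dredd, Tak1, key, Rel and Diap2) all mutant libraries lay below all wOB libraries, a state found in 14.9% of all genes. The median difference of the core was -0.12, beside 0.00 for all genes. The same 5 members were those with every old wOB library above every young one, a state of 10.7% of all genes. For Dredd this was a near tie (498.1 against 497.7). The comparison at the old age and that with age in wOB share the old wOB libraries, so that they are no independent observations.

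Ageing was then compared within each genotype, first in wOB. No member was called, beside 3.05% of all genes, and 2 passed the test as higher, beside 2.70%. All 8 estimates were above 0, with a median of 0.19 beside 0.03 for all genes. In the 9 libraries without male transcripts 6 were above 0, Fadd (-0.07) and Tab2 (-0.13) were below it, and the median was 0.19. In mutants no member was called, beside 1.81% of all genes, none passed the test in limma, beside 5.82%, or in edgeR or DESeq2, and 0 had an unadjusted p under 0.05 in limma. Dredd and Rel had all old libraries above all young ones, beside 13.2% of all genes. The median was -0.00 beside -0.02.

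Whether the genotype effect differed between the ages was tested as an interaction. The 8 estimates lay between -0.30 for Rel and -0.01 for Fadd, and none passed (lowest adjusted p = 0.414, for key), beside 0.158% of all genes tested. At an unadjusted p under 0.05 there were 4 members in limma, and edgeR passed 0 and DESeq2 1. By their p in limma these 4 ranked 195 (key), 401 (Tak1), 421 (Diap2) and 678 (Rel) among the 11403 genes tested. The share of 0.158% belongs to the adjusted rule, and none was counted for the unadjusted one. The interaction of key, -0.26 ± 0.08, had an unadjusted p of 0.00711 in limma. The shared sign did not hold in every analysis: 2 members were above 0 without the libraries with male transcripts (Fadd at 0.23 and Tab2 at 0.09) and 2 in edgeR (Fadd at 0.03 and imd at 0.01). For key the interaction passed in DESeq2 on the recovered reads and with library weights, and in no other alternative. The genotype effect averaged over both ages was -0.38 ± 0.04 for key (adjusted p = 6.11e-05, limma) and -0.50 ± 0.07 for Rel (adjusted p = 3.58e-04), and both passed in all 25 alternatives. None of the core was called by the average, beside 5.45% of all genes, and 2 members passed the test as lower, beside 10.7%. Averaged over genotypes, all 8 estimates with age were above 0. Rel alone passed this test (0.33 ± 0.07, adjusted p = 0.00551, limma), beside 6.09% of all genes that passed as higher. No member was called by this average, beside 2.85% of all genes in either direction.

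The members were also summed, to show how much of the core each made up. The summed normalised count of the core was 13460 ± 235 in young wOB, 12842 ± 117 in young mutants, 15696 ± 511 in old wOB and 13065 ± 304 in old mutants. Rel made up 22.8% of this sum in young wOB, 18.6% in young mutants, 27.2% in old wOB and 20.7% in old mutants, and its share did not overlap between the genotypes at either age. The sum of the other 6 members without key and Rel ranged from 8290.1 to 9145 in young wOB, from 8846 to 9118 in young mutants, from 9275 to 9433 in old wOB and from 8673 to 9208 in old mutants. That sum overlapped between the genotypes at the young age and not at the old age.

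The level of key was set beside that of the catalytic subunit it pairs with. IKKbeta (chromosome 3R, from 16046347 to 16049421) averaged 723 ± 111 normalised counts in young wOB, 882 ± 67.5 in young mutants, 872 ± 25.8 in old wOB and 855 ± 23.4 in old mutants, and it did not pass the test at the young age (0.29 ± 0.10, adjusted p = 0.0769, limma) or the old age (-0.03 ± 0.10, adjusted p = 0.970). The young difference of IKKbeta was 0.10 ± 0.08 without the libraries with male transcripts (adjusted p = 0.765). Per kb of exon, the ratio of key to IKKbeta lay between 3.53 and 4.88 in young wOB and between 2.72 and 3.08 in young mutants. In old flies it lay between 3.74 and 4.35 in wOB and between 2.88 and 2.998 in mutants. The 6 wOB libraries thus all had higher ratios than the 6 mutant libraries, a description with no test of its own. The library nearest to the mutants was wOB young replicate 3, the young wOB library without male transcripts.

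Over the 12 libraries key and Rel had the highest correlation of log2 values of the 28 pairs of members (r = 0.92, against a median of 0.29 and a lowest value of -0.78 for imd and Tab2). It was 0.92 over the 9 libraries without male transcripts and 0.52 for deviations from the group means, where 12 libraries share 4 means. Part of this correlation is therefore the group differences given above. Of the 9200 tested genes with a mean of at least 50, the 3 most like key over the 12 libraries were Charon (r = 0.983), CG16985 (0.975) and CG42807 (0.966), and those most like Rel were Myo31DF (0.984), CG15546 (0.982) and NUCB1 (0.979). Over the 9 libraries Charon remained the most like key (r = 0.996) and CG15546 was the most like Rel (r = 0.996). Charon, for example, had 1174 ± 95.8 normalised counts in young wOB, 810.3 ± 20.99 in young mutants, 1434 ± 114 in old wOB and 787 ± 16.7 in old mutants.

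**Figure D4:**
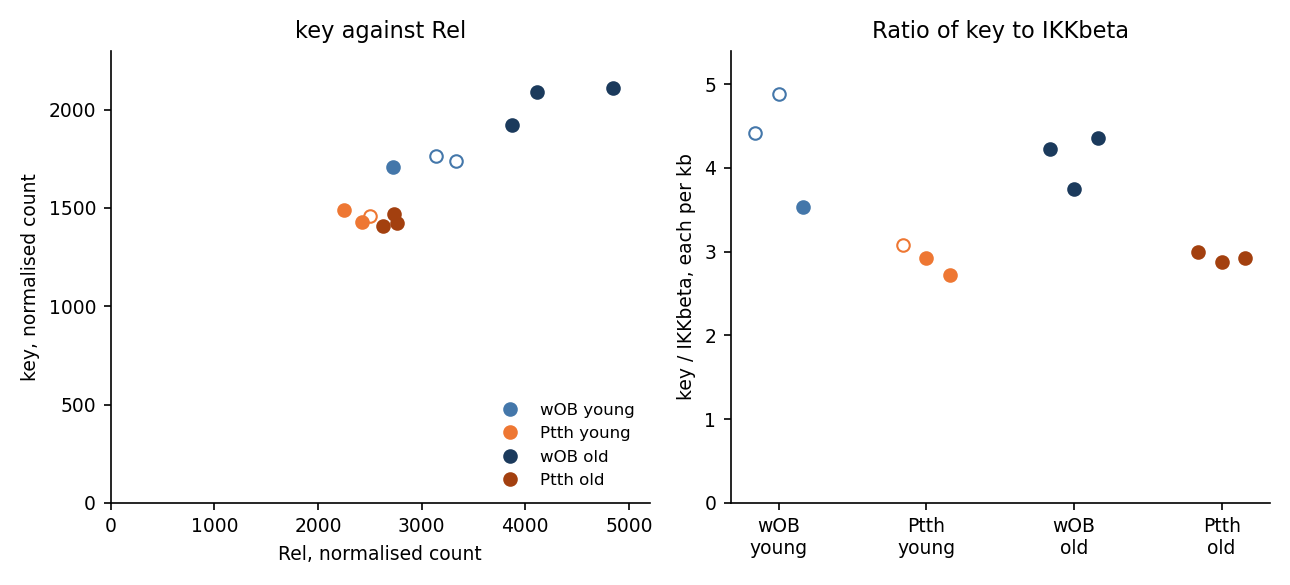
Left, normalised count of key against that of Rel in the 12 libraries. Right, the ratio of key to IKKbeta, each per kb of exon, by group (wOB, wild type; Ptth, Ptth mutants). Open points are the 3 libraries with male transcripts. The ratio is 3.53 to 4.88 in wOB and 2.72 to 3.08 in mutants.

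The other genes of the pathway were read from the same fit. Among 10 recognition proteins and amidases, the enzymes that cut peptidoglycan and so dampen the signal, 2 were called as lower in young mutants, beside 3.78% of all genes tested, and 3 in old mutants, beside 2.71%. PGRP-SB1, an amidase, fell from 1826 ± 446 in old wOB to 390.4 ± 150 in old mutants (-2.27 ± 0.40, adjusted p = 0.00525, limma) and rose with age in wOB by 2.07 ± 0.40 (adjusted p = 0.00709). PGRP-LB, the amidase that restrains Imd signalling, fell at both ages (-0.85 ± 0.19 and -0.74 ± 0.19, adjusted p = 0.0188 and 0.0375), as did PGRP-SC2, another amidase (-0.65 ± 0.18 and -0.69 ± 0.18, adjusted p = 0.0441 and 0.0433). PGRP-LC, the main receptor of the pathway, rose with age in wOB from 675 ± 115 to 1044 ± 196 (0.63 ± 0.15, adjusted p = 0.0256), under the 2-fold threshold, and PGRP-SC1a fell (-1.20 ± 0.30, adjusted p = 0.0284). Without the libraries with male transcripts 0 of these 10 were called at the young age, 1 was at the old age, and 1 rose and 0 fell with age in wOB.

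Inside the cell, the 5 partners of the core (IKKbeta, the ubiquitin-conjugating enzymes ben, Uev1A and eff, and akirin, a nuclear cofactor of Relish) were called in none of the 4 comparisons between genotypes or ages. In the 20 tests none passed in limma or edgeR, 4 had an unadjusted p under 0.05 in limma, and 4 passed in DESeq2 (IKKbeta, Uev1A and eff at the young age and IKKbeta with age in wOB). For this list and those below, no share of all genes was counted for passing in DESeq2 or at an unadjusted p. Many genes met the unadjusted rule: Tak1 at the young age (unadjusted p = 0.0470, limma) ranked 3614 by p among the 11403 tested. Dredd at the old age (unadjusted p = 0.0432, limma) ranked 1768. Of 8 intracellular inhibitors, pirk, which blocks the contact of receptor and Imd, was called at the old age. It had between 282 and 512 normalised counts in old wOB and between 199 and 228 in old mutants (-0.85 ± 0.21, adjusted p = 0.0342, limma), and was not called without the libraries with male transcripts. casp, a fly relative of FAF1, was higher in young mutants by 0.23 ± 0.07 (adjusted p = 0.0481), under the fold threshold, and trbd, a deubiquitinase acting on Tak1, fell with age by 0.27 ± 0.07 in wOB (adjusted p = 0.0374) and by 0.29 ± 0.07 in mutants (adjusted p = 0.0360). From the 9 libraries without male transcripts none of these 3 differences passed (casp 0.13, adjusted p = 0.615, and trbd -0.15 and -0.24, adjusted p = 0.322 and 0.0546).

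In the JNK branch that starts at Tak1, none of 6 genes was called in limma. Without the fold threshold 3 of 24 tests passed, beside 5.71% to 8.83% of all genes in the 4 comparisons, and 7 had an unadjusted p under 0.05. kay, the fly Fos, was lower in mutants at both ages (-0.44 ± 0.11 and -0.49 ± 0.11, adjusted p = 0.0369 and 0.0248, limma), and puc, a phosphatase induced by JNK, at the young age (-0.35 ± 0.08, adjusted p = 0.0207). In the 9 libraries without male transcripts the young differences were -0.22 for kay and -0.18 for puc and did not pass (adjusted p = 0.706 and 0.495), and the old ones, -0.49 and -0.28, did (0.0402 and 0.0303). The 8 genes of the Toll core, which includes the NF-κB factors dl and Dif, were called in none of the 4 comparisons. In its 32 tests none passed in limma or edgeR, 7 had an unadjusted p under 0.05 in limma, and 3 passed in DESeq2 (Dif, pll and spz at the young age). The 6 caspases and inhibitors of apoptosis outside the Imd core passed 0 of 24 tests in limma and edgeR, with 1 at an unadjusted p under 0.05, and 1 in DESeq2 (Dronc at the young age). dl differed by -0.04 ± 0.07 and Dif by 0.03 ± 0.11 between the old groups (adjusted p = 0.901 and 0.966), where Rel differed by -0.65.

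Among 14 antimicrobial peptide genes, a list not divided by pathway, 10 were called as lower in old mutants, with a median difference of -3.68. In old against young wOB 11 were called as higher, with a median of 3.51. Of all genes tested, 2.71% and 0.886% were called in these directions. At the young age 2 were called as lower, beside 3.78%, AttD and Def (-3.18 ± 0.52 and -1.64 ± 0.36, adjusted p = 0.00339 and 0.0192, limma). AttD, one of the attacins, had between 693 and 1025 normalised counts in old wOB and between 20.9 and 89.6 in old mutants. In mutants Def alone was called with age in the main fit (1.81 ± 0.36, adjusted p = 0.0114), beside 0.789% of all genes called as higher. At the old age 6 of 14 passed the test in edgeR and 10 in DESeq2, and no share of all genes passing was counted for either tool. The numbers called changed without the libraries with male transcripts, where young wOB is a single library. There AttD differed by -3.34 and Def by -1.41 at the young age, and with age in mutants by 1.80 and 1.99.

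**Figure D5:**
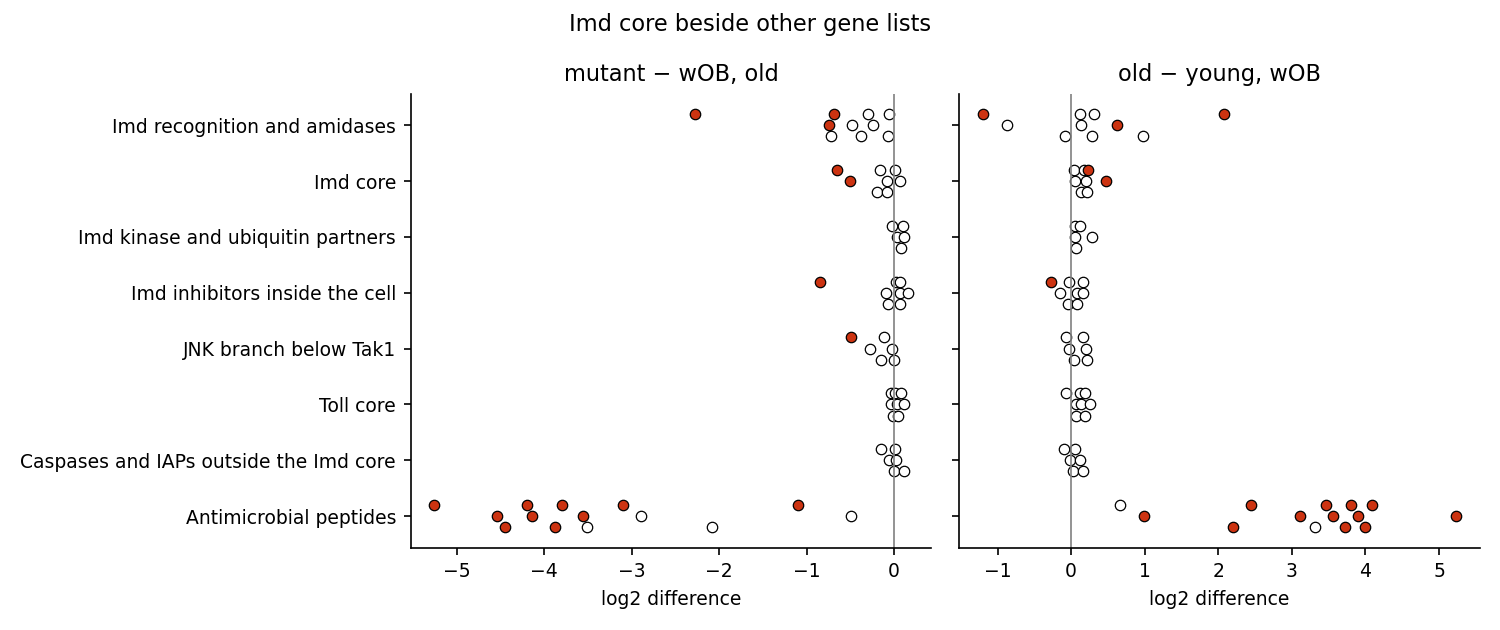
Log2 differences of the Imd core and 7 other gene lists between genotypes at the old age (left) and between ages in wOB (right). Each point is a gene, and red points passed the test at an adjusted p under 0.05 (limma). Differences within the core stay between -0.65 and 0.07 on the left, and those of antimicrobial peptide genes reach -5.26.

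Markers of several tissues moved beside these results. At the old age, 3 of 9 gut markers were called as higher in mutants and none as lower, beside 1.46% of all genes called as higher, and their sum lay between 90090 and 112228 normalised counts in wOB and between 136352 and 166154 in mutants. Of 8 fat body markers tested, 2 were higher and none lower, with sums from 89381 to 97121 and from 105869 to 117100 (Fbp1 was at 0 in all old wOB libraries). Of 13 yolk and eggshell markers 2 were higher, with sums from 461592 to 618042 and from 656425 to 857475. At the young age 1 of 9 hemocyte markers and 1 of 13 muscle markers were called as lower, beside 3.78% of all genes. The hemocyte sums were from 27587 to 32946 in wOB and from 20136 to 25295 in mutants. The muscle sums were from 120886 to 162447 and from 108818 to 118612, and no share of all genes was counted for sums. Without the libraries with male transcripts none of either list was called there. With age in wOB 9 of 13 muscle markers were called as lower, beside 2.17% of all genes, and their sum was between 57104 and 72279 in old wOB. In mutants 4 of 13 were called as lower with age, beside 1.02%, and the sum was between 62006 and 70759 in old mutants, again below all young ones. The gut, fat body and yolk and eggshell sums were higher in old than in young mutants without overlap, and the germline sum was lower. The hemocyte sum was between 20715 and 26628 in old wOB, below all young wOB libraries. With age in wOB 3 of its 9 markers passed the test as lower, all under the fold threshold, beside 5.73% of all genes. Another of the 9, NimC1, went the other way and rose with age averaged over genotypes (0.65 ± 0.10, adjusted p = 8.30e-04, limma). The part of these tissues in the differences of key and Rel was not tested.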

How the data were processed

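Libraries came from poly(A) RNA of whole females, and the labels describe a pair of library protocols in the same words for every sample. According to the labels and the methods, reads were aligned with STAR 2.7.3a to BDGP6, counted per gene with HTSeq 0.11.2 and scaled with DESeq2 1.20.0. In the deposited table the authors give a normalised signal, that is, reads per gene over the size factor of the library. Whole reads were recovered for 100% of values within 0.01, 1 read being worth from 0.798 to 1.32. The sources used here do not say whether counting used strand, so bases shared with overlapping genes are uncertain. Groups followed the labels, and the paper names the genotypes and ages otherwise.

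Tested were genes that reached a normalised count of 10 in 3 or more libraries (11403 of 17714, including all 8 members) with limma 3.58.1 in R 4.3.3 (lmFit, eBayes with a trend, two-sided, pseudocount 1), which was tested on simulated data. Fold changes of low genes are understated. edgeR 4.0.16 and DESeq2 1.42.0 were run on the recovered reads. Other alternatives changed the pseudocount, filter, scaling, libraries, weights and a replicate block. edgeR without the libraries with male transcripts was added after seeing the data. Positions came from Ensembl release 115 of the Release 6 assembly, and the authors' annotation was release 98. The rule for named genes took every member, IKKbeta, at most 4 called genes per other list and comparison, and the 3 genes most like each member. Genes named although only their adjusted p passed, and CG3589, Nmdmc, dl and Dif, were chosen after their values were seen. The members and lists were chosen with earlier results of these data known. The design text calls the libraries biological replicates and names no separate cultures, so a p-value reflects only how these libraries vary.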

Additional observations from a re-analysis of the deposited data

Results flagged for a closer look

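Tak1, the kinase between the Imd complex and the IκB kinase, was picked out because its libraries moved in opposite directions at the 2 ages. Its log2 difference between mutants and wOB was 0.13 at the young age, with all 3 mutant libraries above all wOB libraries, and -0.09 at the old age, with all 3 below. The test of the difference between these effects gave -0.21 ± 0.08 and did not pass (adjusted p = 0.637, limma). In limma with library weights it passed (adjusted p = 0.0165), a setting that passed 3041 of the 11403 genes tested, beside 18 in the main fit. Without the libraries with male transcripts the young difference was 0.06 and the difference between the effects -0.15.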

How the results depend on the processing

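Of 1432 values recomputed under up to 26 alternatives, 1292 kept their direction and their side of the threshold, and none that had passed changed direction. The number of members passing the test moved with several settings. At the young age (2 members) it was 1 without a filter, 0 with only the groups compared, 0 without the libraries with male transcripts by limma or by edgeR and 5 with library weights. With age in wOB (2) it was 1 with quantile normalisation, 0 with only the groups compared, 1 without the libraries with male transcripts by limma or edgeR, 6 with weights and 4 in DESeq2. At the old age (2) weights gave 4. Weights gave 3 and DESeq2 1 for the interaction (0), 5 and 4 for the averaged genotype effect (2) and 4 and 3 for the averaged age effect (1), where scaling by total reads gave 3. Leaving out 1 library at a time gave from 0 to 3 members at the young age, from 1 to 4 with age in wOB, from 1 to 2 for the averaged age effect, and from 0 to 1 called members at the old age (0 without wOB old replicate 3). Without wOB young replicate 3 the 4 with age were Fadd, Rel, Tak1 and key, and without replicate 2 or 3 of that group the averaged age effect had 2. The cause of these shifts was not tested, except that the model of only the groups compared has fewer libraries.

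Replicate numbers are shared by the groups, but of 18 same-numbered pairs only 4 deviated together (r over 0.1, range -0.87 to 0.88). The main fit therefore treated the samples as unpaired. Between the young groups r went with the male transcripts. It was 0.93 for wOB replicate 2 and mutant replicate 1, which hold them, and 0.88 for the replicates 3, which do not. There the check could not show whether the numbers pair the samples. With the replicate block 1 member (key) passed at the young age in place of 2 (Rel, adjusted p = 0.0623), and no other number of members changed by more than 1.5 times.

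Over all genes, the number called at the young age (549) was 234 with only the groups compared, 115 and 281 without the libraries with male transcripts (limma, edgeR), 2635 with weights and from 297 to 2265 with 1 library left out (2265 without wOB young replicate 3). At the old age (475) it was 834 with weights and from 297 to 559 with 1 library left out. With age in wOB (348) it was 885 in DESeq2, 1617 with weights and from 264 to 1515 with 1 library left out. With age in mutants (206) it was 137 with quantile normalisation and 321 in edgeR without the libraries with male transcripts. For the averaged genotype effect (622) it was 1979 with weights and up to 1094 with 1 library left out. For the averaged age effect (325) it was 183 at a mean of at least 50, 727 in edgeR, 1048 in DESeq2, 1311 with weights and up to 1288 with 1 library left out. For the interaction (18) it was 40 without a filter, 6 in edgeR, 6 without the libraries with male transcripts, 123 in DESeq2, 3041 with weights and from 4 to 201 with 1 library left out. Quantile normalisation gave 171 higher and 290 lower at the young age (118 and 431 otherwise), 204 and 153 with age in wOB (101 and 247), 214 and 281 for the averaged genotype effect (164 and 458) and 224 and 131 for the averaged age effect (107 and 218). With 3 libraries a group, the SE of a difference was 0.11 for imd and 0.13 for Fadd, so that real differences of these genes could have been missed.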
